A study of Mus musculus with 3 samples.

Results

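The genes described here are 10 of the 56748 genes in a transcript count table of cultured adult mouse ventricular cardiomyocytes (ACMs), taken from it by gene symbol. They are the 5 genes of the NF-kB subunits (Nfkb1, Nfkb2, Rela, Relb and Rel) and 5 genes of inhibitors or modulators of the pathway (Nfkbia, Nfkbib, Nfkbie, Nfkbiz and Tnfaip3). The ACMs came from WT mice aged 8 to 10 weeks, were plated on laminin and were kept in serum-free medium with the contraction inhibitor BDM and insulin. They received mouse oncostatin M (OSM) at 10 ng/mL, human IL-6 at 10 ng/mL or vehicle (0.1% BSA) for 16 h. OSM and IL-6 are cytokines whose receptors share the gp130 chain and signal through Janus kinases to STAT3. Each condition was 1 library of pooled RNA from an unstated number of cultures, so that no difference below has a replicate check. The comparisons ask how transcripts of ACMs differ after OSM or IL-6.

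NF-kB is a family of dimeric transcription factors. In resting cells most dimers are held in the cytoplasm by IkB proteins, and after signals such as TNF, IL-1 or bacterial products the IKK complex phosphorylates the IkBs, which are then degraded so that the dimers enter the nucleus. In a second, slower route the kinase NIK, encoded by Map3k14, drives the processing of the Nfkb2 product, which pairs with RelB. Several genes of inhibitors are themselves targets of NF-kB, and in the heart the pathway is known from the responses to ischemia, pressure overload and sepsis. Its activity is set largely by protein modification and location, which a transcript count does not measure.

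The vehicle library held 24939980 counts, the IL-6 library 26362446 and the OSM library 30773001. At these depths the floor of 3 counts per library is 0.120, 0.114 and 0.0975 CPM (counts scaled to the library total), in the same order. Counts were scaled between libraries with the TMM factors of edgeR. Socs3, a known STAT3 target, had 670 counts with vehicle, 646 with IL-6 and 18194 with OSM. All 10 cardiomyocyte markers were detected, with summed counts of 709309, 770280 and 985725 for vehicle, IL-6 and OSM. Scaled to the library totals these were 28440, 29220 and 32030 CPM. By the rule given below, 0 of the 10 were called higher with OSM against vehicle and 2 lower, beside 3.74% and 5.43% of all compared genes. The lower ones were Ryr2, with 22606, 23555 and 9264 counts for vehicle, IL-6 and OSM, and Ttn, with 18901, 20398 and 7191. Fold changes with OSM varied with gene length, as given below, and the part of length in these calls was not tested. Of 9 macrophage markers, Ptprc, C1qa, C1qb and Fcgr1 were at 0 in all 3 libraries. In the vehicle, IL-6 and OSM libraries, Cd68 had 382, 448 and 1419 counts and Csf1r 187, 166 and 209. Lyz2 had 13, 4 and 31, Cd14 had 8, 22 and 18 and Adgre1 had 8, 0 and 6. The whole list summed to 24.0, 24.3 and 54.7 CPM, mostly from Cd68. The endothelial list lay between 36.3 and 38.8 CPM, the smooth muscle and pericyte list between 36.2 and 43.7 CPM and the fibroblast list between 5.46 and 6.37 CPM, while the T and B cell list did not exceed 0.160 CPM. In bulk RNA, fewer cells of a type and less RNA per cell cannot be told apart, and the part of these other cell types in the results below was not tested.

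Promoter sequences are shown because several of these genes are known to carry binding sites of NF-kB itself. Of the 10 genes, 7 matched 10 entries in the RefSeq promoter table (build GRCm38.p6). Its windows span 250 bases before to 50 bases after each start. Every matched entry was found exactly 1 time in GRCm39, the build of the count table. Nfkb1, Relb and Nfkbiz had no entry, so their promoters were not searched for motifs. The NF-kB (kB) consensus, a motif of 10 bases searched on both strands, was present in the windows of 4 genes, Nfkb2, Rel, Nfkbia and Tnfaip3. It was present in 5.8% of 32851 mouse promoter windows of the same length. The lines below run 5′ to 3′ on the strand of the gene, with the match in capitals. For Rel, Nfkbia and Tnfaip3 the consensus reads on the opposite strand, and the capitals of Rel hold 2 overlapping matches.
Nfkb2, chr19:46293127-46293156, plus strand: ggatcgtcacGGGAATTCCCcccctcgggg
Nfkb2, chr19:46293155-46293184, plus strand: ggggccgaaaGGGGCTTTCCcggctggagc
Nfkb2, chr19:46294134-46294163, plus strand: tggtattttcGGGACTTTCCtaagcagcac
Rel, chr11:23721041-23721070, minus strand: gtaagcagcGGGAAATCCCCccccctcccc
Nfkbia, chr12:55539442-55539471, minus strand: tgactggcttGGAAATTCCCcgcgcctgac
Tnfaip3, chr10:18891151-18891180, minus strand: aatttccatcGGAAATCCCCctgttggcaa

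The first and second Nfkb2 matches end 30 bases and 2 bases before the first RefSeq start of the gene, and the last one lies 10 to 19 bases after another start. The Nfkbia match lies 29 to 20 bases and the Tnfaip3 match 12 to 3 bases before the start. In the GENCODE annotation the Nfkbia window is upstream of the gene, while the other printed windows lie in exons of the named gene, which for the last Nfkb2 line belong to a transcript other than the canonical one. A looser form of the motif, which contains the consensus matches, was present in 8.46% of all windows and also in that of Nfkbie. The windows of Rela, Nfkbib and Nfkbie held no match to the consensus. A palindromic STAT motif, TTCNNNGAA, was present in 8.3% of all windows and in those of 1 of the 7 genes, Nfkb2, where it ends 140 bases before the first start.
Nfkb2, chr19:46293018-46293047, plus strand: tgggcgagccTTCCCCGAAaggggcgcgcc

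Levels were compared between genes as FPKM, the counts per gene length and library. The authors' lengths differ from those of the canonical transcripts, with 2169 and 1369 bases for Nfkbib, 12061 and 4704 for Nfkb1 and 4584 and 6754 for Nfkb2. The order of genes within a library, and the sums, shares and ratios of FPKM below, therefore depend on the length used. In vehicle-treated ACMs the 10 genes spanned from 19.5 FPKM for Rela to 0.347 FPKM for Nfkbiz. The upper group comprised Rela, Nfkbib (17.7 FPKM), Nfkb2 (16.5 FPKM), Nfkbia (16.1 FPKM) and Relb (11.9 FPKM). Each of the first 4 had a 95% counting interval that overlapped that of its neighbour in this order, while Relb lay below them. Nfkb1 (2.59 FPKM) and Rel (1.68 FPKM) followed, each separated from its neighbours. Nfkbie (0.597 FPKM), Tnfaip3 (0.367 FPKM) and Nfkbiz (0.347 FPKM) were lowest and overlapped from neighbour to neighbour. With OSM the order differed, as Nfkbib came first with 30.4 FPKM, followed by Rela with 29.2 FPKM and Nfkbia with 23.1 FPKM, while Nfkbiz moved from last to eighth with 1.37 FPKM. All intervals cover counting error only, since reads were amplified by PCR without molecular identifiers and do not each stand for a separate molecule.

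**Figure D1:**
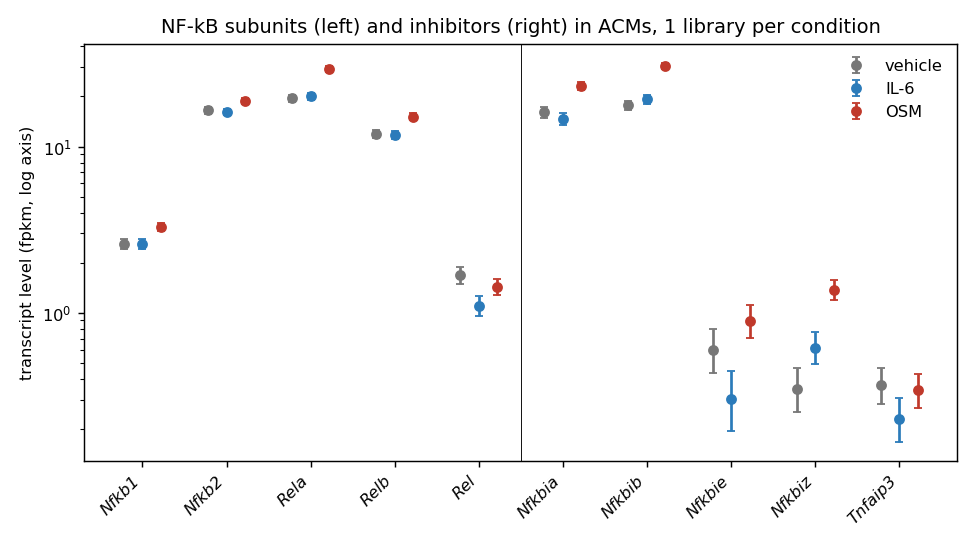
Transcript level of each gene in FPKM (log axis) in the vehicle, IL-6 and OSM libraries, with 95% counting intervals as bars and 1 library per point. Nfkbiz lay at 0.347, 0.618 and 1.37 FPKM, and the OSM point is the highest of the 3 libraries in 8 of the 10 genes, all but Rel and Tnfaip3.

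Between OSM and vehicle, 15537 genes with at least 10 counts over both libraries were compared, among them all 10 of these genes. A gene was called when the whole 95% interval of its fold change lay beyond 2-fold. By this rule 1 of the 10 genes was higher, Nfkbiz, and 0 were lower, beside 3.74% higher and 5.43% lower among all compared genes. By the weaker criterion that the whole interval lies on one side of no change, 8 of the 10 genes were higher with OSM, beside 33.4% of all compared genes, and 0 were lower, beside 33.1%. The count was 7 with total-count scaling, without Nfkbie. The median log2 fold change was 0.43 over the 10 genes, 0.34 over the subunits and 0.57 over the inhibitors, and 0.00 over all compared genes. Most of these genes thus differed by much less than 2-fold, in the direction of higher levels with OSM.

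The IL-6 library was set against the same vehicle library, so the OSM and IL-6 fold changes share it. Among 15472 compared genes, 0 of the 10 were called higher with IL-6, beside 1.77% of all genes, and 0 lower, beside 1.74%. The whole interval lay above no change in 1 gene, Nfkbiz (19.6% of all compared genes), and below it in 3, Rel, Nfkbie and Tnfaip3 (19.1%). The median over the 10 genes was -0.03 on the log2 scale. Set directly against the IL-6 library over 15544 genes, OSM gave 0 calls in either direction, beside 4.24% higher and 5.42% lower of all genes. The whole interval lay above no change in all 10 genes and below it in 0, beside 33.2% of all compared genes in each direction. With total-count scaling it was 9, without Tnfaip3. The median of this difference was 0.56 on the log2 scale.

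**Figure D2:**
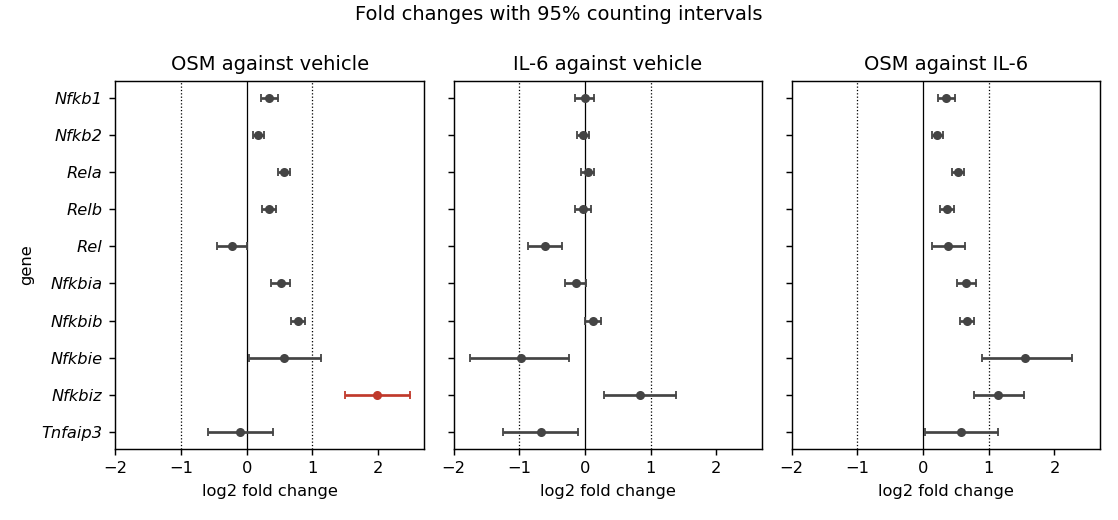
Log2 fold change of each gene in the 3 comparisons of libraries, with 95% counting intervals as bars and dotted lines at 2-fold. The red point, Nfkbiz with OSM against vehicle, is the 1 value whose interval lies wholly beyond 2-fold, and in OSM against IL-6 all 10 intervals lie above no change.

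Rela encodes p65, the subunit with a transactivation domain in the most common dimer. It lies at chr19:5687511-5698158 on the plus strand and had 1518 counts with vehicle, 1674 with IL-6 and 2676 with OSM. OSM was the highest library, and the log2 fold change over vehicle was 0.58 (95% counting interval 0.48 to 0.67). With IL-6 it was 0.04 (-0.06 to 0.14), an interval that includes no change.

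Nfkb1 encodes p105, the precursor of the p50 partner of p65, and lies at chr3:135290416-135397308 on the minus strand. It had 790 counts with vehicle, 844 with IL-6 and 1186 with OSM. The OSM library was above the others, by 0.34 (0.21 to 0.48) over vehicle and 0.35 (0.22 to 0.48) over IL-6 on the log2 scale. The interval of IL-6 against vehicle ran from -0.15 to 0.14.

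Nfkb2 encodes p100, which acts as an inhibitor until it is processed to p52, and lies at chr19:46292759-46300824 on the plus strand, where the printed kB and STAT matches are. Counts were 1915 with vehicle, 2003 with IL-6 and 2563 with OSM, and the log2 fold change with OSM was 0.18 (0.09 to 0.27), the smallest of the 4 subunits that were higher. In the GENCODE annotation the gene shares 24.5% of its exon bases with the oppositely oriented Psd and 13.7% with the noncoding gene 4833438C02Rik. In the gene coordinates of the count table, Nfkb2 overlaps them by 299 and 1317 bases. Psd had 236, 279 and 292 counts and 4833438C02Rik 38, 51 and 101, given as vehicle, IL-6 and OSM. The sources used here do not say whether the counting used the strand, so reads of these genes and of Nfkb2 cannot be told apart with certainty.

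Relb encodes the partner of p52 in the slower route and lies at chr7:19340142-19363363 on the minus strand. It had 1170 counts with vehicle, 1231 with IL-6 and 1752 with OSM. Its log2 fold changes of 0.34 (0.23 to 0.45) with OSM and -0.03 (-0.14 to 0.09) with IL-6 lay near those of Nfkb1, and the interval of the difference between the 2 genes with OSM was -0.16 to 0.17, before gene length is taken into account. The difference between Rela and Relb with OSM was 0.24 (0.10 to 0.38), so that Rela exceeded it by more than counting error.

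Rel encodes c-Rel, a subunit best known from lymphocytes, and lies at chr11:23686847-23720970 on the minus strand. It had 317 counts with vehicle, 223 with IL-6 and 320 with OSM, which after scaling made vehicle the highest library. The log2 fold change was -0.61 (-0.86 to -0.36) with IL-6 and -0.23 (-0.46 to 0.0007) with OSM. The OSM interval reaches no change here and lies wholly below it when libraries are scaled by total counts or by the size factors of DESeq2. With IL-6, Rel differed from each of the other 4 subunits beyond counting error, and Rela minus Rel was 0.65 on the log2 scale (0.38 to 0.92). The markers of T and B cells, from which Rel is best known, summed to 4 counts in each library. Which cells the Rel reads came from was not tested.

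Nfkbia encodes IkB-alpha, the inhibitor that is rapidly degraded and resynthesized after stimulation, and lies at chr12:55536195-55539432 on the minus strand. It had 656 counts with vehicle, 639 with IL-6 and 1110 with OSM. The log2 fold change was 0.52 (0.38 to 0.66) with OSM and -0.14 (-0.30 to 0.02) with IL-6.

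Nfkbib encodes IkB-beta, a more slowly turned over inhibitor, and lies at chr7:28457676-28466937 on the minus strand. Its 970 counts with vehicle, 1131 with IL-6 and 1972 with OSM made OSM the highest library, with a log2 fold change of 0.78 (0.67 to 0.89), the second of the 10 genes. With IL-6 it was 0.12 (-0.00 to 0.25). In the GENCODE annotation it shares 1.78% of its exon bases with the oppositely oriented Sirt2, whose counts were 2184, 2451 and 2818 in the vehicle, IL-6 and OSM libraries. It also shares 14.3% with Gm71901 and 13.3% with Ccer2, on the opposite strand too, and Ccer2 had 0 counts in each library.

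Nfkbie encodes IkB-epsilon, an inhibitor mainly of dimers with p65 and c-Rel, and lies at chr17:45866629-45874095 on the plus strand. It was a low transcript, with 46 counts with vehicle, 25 with IL-6 and 81 with OSM. The log2 fold change was 0.57 (0.04 to 1.13) with OSM and -0.98 (-1.74 to -0.25) with IL-6, so that IL-6 was the lowest and OSM the highest library. Directly compared, OSM exceeded IL-6 by 2.94-fold (1.86 to 4.80), and the lower bound lies within 2-fold.

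Nfkbiz encodes IkB-zeta, a nuclear member of the IkB family that acts as a cofactor of p50 at a subset of target genes and is inducible in many cells. It lies at chr16:55631738-55659262 on the minus strand. Counts were 44 with vehicle, 84 with IL-6 and 205 with OSM, in that order after scaling as well, and none of the 3 FPKM intervals overlapped. OSM exceeded vehicle by 3.94-fold (2.83 to 5.59), which is a log2 fold change of 1.98 and higher than in 95.9% of compared genes. IL-6 exceeded vehicle by 1.78-fold, a log2 fold change of 0.83 (0.29 to 1.39), and OSM exceeded IL-6 by 2.21-fold, a difference of 1.15 (0.77 to 1.53). With OSM the fold change of Nfkbiz was above that of each of the other 9 genes beyond counting error, and for the nearest, Nfkbib minus Nfkbiz was -1.20 (-1.68 to -0.71). Nfkbiz remained called with OSM under every alternative scaling, filter and rule that was run, with the exception of an exact test of edgeR that assumed a biological coefficient of variation (BCV) of 0.4, which called 43 genes higher in all.

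Tnfaip3 encodes A20, a ubiquitin-editing enzyme that restrains signals from TNF and Toll-like receptors, and lies at chr10:18876658-18891405 on the minus strand. It had 67 counts with vehicle, 45 with IL-6 and 74 with OSM. The log2 fold change was -0.10 (-0.59 to 0.40) with OSM, an interval wide enough for a modest change in either direction, and -0.67 (-1.25 to -0.11) with IL-6. Tnfaip3 and Rel were thus the 2 genes without an interval above no change in OSM-treated ACMs, and the difference between them was within counting error (-0.66 to 0.40 for Rel minus Tnfaip3). Both carry the consensus in their windows, as do Nfkb2 and Nfkbia, which were higher.

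In the OSM library the fold change of a gene varied with its length, as the median over compared genes of like length was 0.35 at the length of Nfkbia (1610 bases) and -0.56 at that of Nfkb1 (12061 bases), the shortest and longest of the 10. Each was therefore also set beside the median of compared genes of like length. All 10 lay above that median, and the whole interval lay above it in 7, beside 32.4% of all compared genes. On the log2 scale Nfkbiz was 2.08 and Nfkb1 0.90 above it, the largest distances of the 10. Nfkbib was 0.48 above, Rela 0.42, Relb 0.26 and Nfkbia 0.17, so that Nfkb1 and Relb, alike before, stood apart on this scale. That rests on the authors' gene lengths, as the canonical transcript of Nfkb1 has 4704 bases rather than 12061. At the authors' length of Nfkb2 (4584 bases) the median was -0.02, so the distance of Nfkb1 depends on the length taken. Rel, at -0.23, lay only 0.02 above its like-length median of -0.25.

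**Figure D3:**
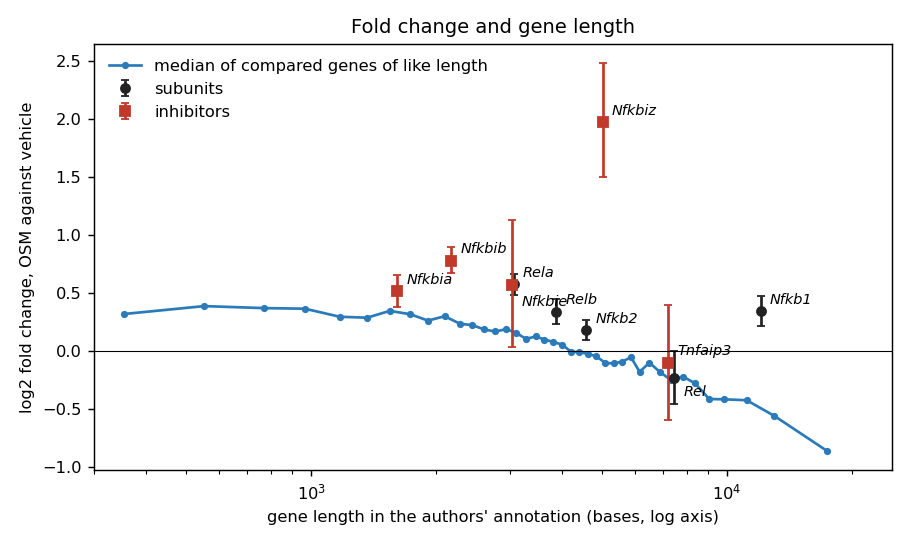
Log2 fold change of OSM against vehicle by gene length in the authors' annotation (log axis), with 95% counting intervals for the 10 genes and the median of compared genes of like length as a line. All 10 points lie above the line, by 0.02 for Rel and 2.08 for Nfkbiz.

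Summed over the subunits, the level was 52.2 FPKM with vehicle, 51.6 FPKM with IL-6 and 67.7 FPKM with OSM. Transcripts of IkB-alpha, -beta and -epsilon summed to 34.4, 34.2 and 54.4 FPKM for vehicle, IL-6 and OSM. The ratio of these IkB transcripts to subunit transcripts, which does not depend on how libraries are scaled, was 0.658 with vehicle, 0.663 with IL-6 and 0.804 with OSM. The log2 change of the ratio was 0.29 (0.19 to 0.39) for OSM against vehicle and 0.01 (-0.10 to 0.12) for IL-6 against vehicle. With OSM the like-length median was 0.35 for Nfkbia, 0.30 for Nfkbib and 0.16 for Nfkbie. For the subunits it was 0.16 for Rela, 0.08 for Relb, -0.02 for Nfkb2, -0.25 for Rel and -0.56 for Nfkb1. The part of gene length in the ratio of IkB to subunit transcripts was not tested.

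Within the subunits, Rela made up 37.4% of the summed FPKM with vehicle, 39.0% with IL-6 and 43.1% with OSM. The share of Nfkb2 was 31.6% with vehicle, 31.2% with IL-6 and 27.7% with OSM, while that of Relb stayed between 22.3% and 22.8%. Rel made up 3.21% with vehicle, 2.14% with IL-6 and 2.12% with OSM. The log2 change of Rela over the other subunits was 0.34 (0.23 to 0.45) with OSM and 0.10 (-0.02 to 0.21) with IL-6. Rela had the highest like-length median of the subunits with OSM, and the part of gene length in these shares was not tested. Among the inhibitors, the ratio of Nfkbib to Nfkbia was 1.10 with vehicle, 1.31 with IL-6 and 1.32 with OSM. Its log2 change against vehicle was 0.26 with either cytokine, with intervals of 0.09 to 0.44 for OSM and 0.06 to 0.46 for IL-6. Both values share the single vehicle library and so are not independent. For OSM against IL-6 the change was 0.01 (-0.17 to 0.18). The ratio of Nfkbib to Nfkbia was the 1 of the 3 ratios examined whose interval with IL-6 against vehicle lay above no change.

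**Figure D4:**
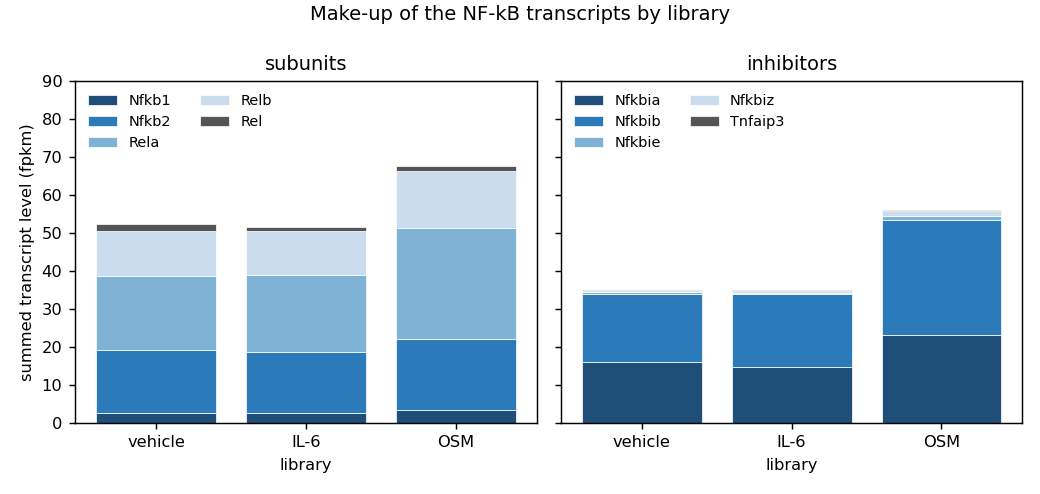
Summed FPKM of the 5 subunit genes (left) and the 5 inhibitor genes (right) in each library, stacked by gene. The subunits sum to 52.2, 51.6 and 67.7 FPKM and the inhibitors to 35.1, 35.0 and 56.1 FPKM for vehicle, IL-6 and OSM, with Nfkbia and Nfkbib as the bulk of the inhibitors.

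Among those of the 10 genes that had at least 100 counts in every library, Nfkbib had the largest fold change with OSM, and by rule the genes nearest to it in the plane of the OSM and IL-6 log2 fold changes were sought among 9345 genes with at least 100 counts in every library. They were Rps29, a ribosomal protein gene of a family with many near-identical pseudogenes and so of uncertain count, at a distance of 0.0047, Pus1, a pseudouridine synthase gene, at 0.0090 and Lyar, at 0.0174. Rps29 had 2775 counts with vehicle, 3245 with IL-6 and 5650 with OSM.

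The wider pathway was described with 5 lists of 126 genes, of which 102 could be compared between OSM and vehicle. Of these, 16 were called higher (15.7%, beside 3.74% of all compared genes) and 2 lower (beside 5.43%), and the median log2 fold change was 0.07. The edgeR exact test with an assumed BCV of 0.4 called 1 of them higher and 0 lower. With IL-6, 2 of 98 were higher (beside 1.77% of all compared genes) and 4 lower (beside 1.74%), all on counts below 100 over the pair, and the median was -0.05. Between OSM and IL-6, 16 of 102 were higher (beside 4.24%) and 1 lower (beside 5.42%), with a median of 0.09. The counts of the single lists with OSM, given next, stand beside the same 3.74% higher and 5.43% lower.

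Of the 18 genes of the IKK complex and upstream kinases, 1 was called higher with OSM and 0 lower, and their median was -0.24. The 1 gene was Map3k8, a kinase bound by the Nfkb1 precursor, with 60 counts with vehicle, 61 with IL-6 and 207 with OSM, for a log2 fold change of 1.55 (1.12 to 1.98). The core of the complex, chosen for its role after the values were seen, was not higher. Ikbkg, its regulatory subunit, had 4738, 5003 and 4127 counts for vehicle, IL-6 and OSM and a log2 fold change of -0.44 (-0.50 to -0.38) with OSM. Chuk, a catalytic subunit, had -0.15 (-0.27 to -0.03), and Ikbkb, the other catalytic subunit, had 0.09 (-0.08 to 0.26). None of the 3 was called.

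Among the adaptors and TRAFs, 1 of 17 compared genes was higher with OSM and 1 lower, with a median of 0.08. Myd88, the adaptor of IL-1 and most Toll-like receptors, had 673 counts with vehicle, 725 with IL-6 and 3177 with OSM, a 3.99-fold difference between OSM and vehicle. The lower gene, outside the naming rule for its low level, was Malt1, a paracaspase, with 113, 77 and 47 counts. The list of other inhibitors also holds genes that promote the pathway, such as Rnf31 and Btrc, and so is one of mixed regulators. In it 2 of 23 were higher and 0 lower, with a median of 0.15. Bcl3, a nuclear relative of Nfkbiz in the IkB family, had 118 counts with vehicle, 100 with IL-6 and 767 with OSM, for a log2 fold change of 2.46 (2.18 to 2.75), an interval that overlapped that of Nfkbiz. Zc3h12a, which encodes an RNase that degrades inflammatory transcripts, had 73, 76 and 276 counts and a log2 fold change of 1.68 (1.30 to 2.07).

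Among the receptors, 3 of 13 compared genes were higher with OSM and 0 lower, with a median of 0.02. Il17ra, the common chain of IL-17 receptors, had 332 counts with vehicle, 321 with IL-6 and 1762 with OSM, for a log2 fold change of 2.17 (2.00 to 2.34). The others, below the level set for naming, were Il1r1 with 41, 78 and 184 counts and Cd40, which was at 0 with vehicle and had 13 counts with OSM, at least 3.67-fold higher against the floor of 3 counts. Tnfrsf1a, a receptor of TNF, had 2746, 2773 and 6604 counts and was called against IL-6 with a log2 difference of 1.11 (1.05 to 1.17), while against vehicle its interval was 0.96 to 1.09.

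Of 40 genes listed as known NF-kB targets, 31 could be compared between OSM and vehicle, of which 9 were higher (29.0%, beside 3.74% of all compared genes) and 1 lower (beside 5.43%), with a median of 0.15. Ptgs2, which encodes cyclooxygenase-2, had 52 counts with vehicle, 34 with IL-6 and 798 with OSM and the largest log2 fold change that is not a bound, 3.70 (3.29 to 4.13). Lcn2, an iron-sequestering acute-phase protein gene that is also a known target of IkB-zeta, had 95, 82 and 651 counts and a log2 fold change of 2.54 (2.22 to 2.86). Ier3, an immediate early gene, had 2036, 2189 and 8997 counts, Tnfaip2 976, 1122 and 3402, and the chemokine gene Ccl2 14, 29 and 60. The remaining higher genes were Gadd45b, Bcl2l1, Il6 and Ptges, and the lower one was Cd83, with 23 counts with vehicle and 0 in the other libraries. Other targets were not called, such as Icam1, an adhesion molecule gene, with a log2 fold change of -0.76 (-1.05 to -0.46) and Sod2, mitochondrial superoxide dismutase, with 0.03 (0.00 to 0.06), both named after their values were seen. Many of these targets are known to respond to other factors, STAT3 among them, so their counts are no measure of NF-kB alone. As the list was chosen with earlier results of these data known, its share beside all genes is no test of the pathway.

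With IL-6, the called genes of the 5 lists were Ptges and Nod2, higher with 12 counts each against 0 with vehicle, and Plau, Cd83, Tnip3 and Tnfrsf1b, lower. Of the lower genes, Plau, Cd83 and Tnip3 were at 0 with IL-6 after 32, 23 and 22 counts with vehicle, and Tnfrsf1b had 18 counts after 60. Between OSM and IL-6, the rule also named Tnip2, an inhibitor that binds A20, with 209 counts for IL-6 and 555 for OSM, Sele, an adhesion molecule gene, with 20 and 119, and Cxcl10, a chemokine gene, which was lower with 28 counts for OSM after 86 for IL-6.

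**Figure D5:**
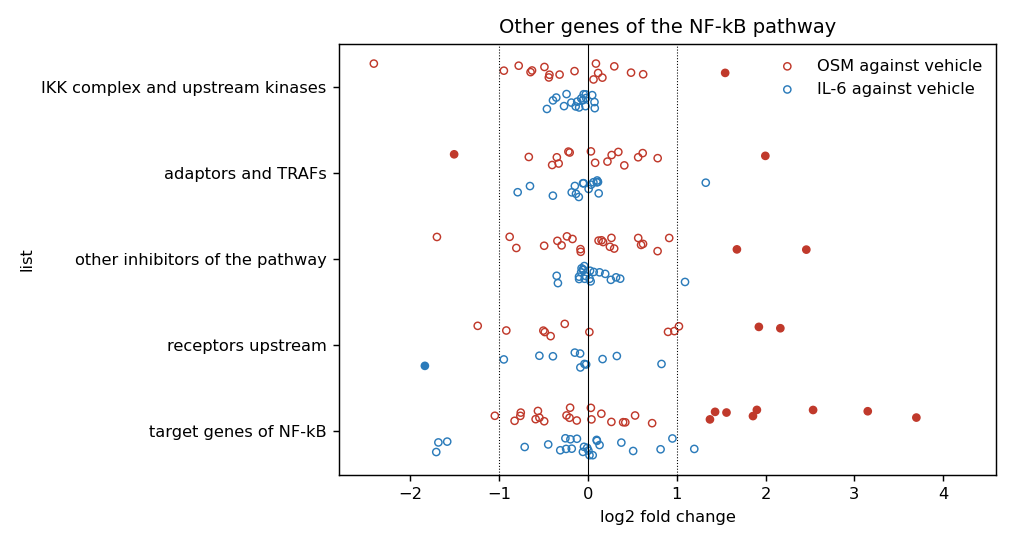
Log2 fold change of the compared genes of the 5 pathway lists for OSM (red) and IL-6 (blue) against vehicle, 1 point per gene, filled where called and open where not, with dotted lines at 2-fold. A gene with 0 counts in either library of a comparison is not drawn for that comparison, and Ptgs2 at 3.70 among the targets is the point farthest to the right.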

How the data were processed

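RNA from ACMs treated with vehicle, IL-6 or OSM was pooled within a condition and poly(A)-selected, giving 1 library each. The authors deposited unnormalized counts per gene and FPKM values, which equal the counts divided by gene length and 1 constant per library. The submitters' processing notes name fastp, HISAT2 2.2.1, featureCounts 2.0.6, edgeR 4.0.16 and mm39. Versions given in the paper differ, and no source used here states whether counting was stranded.

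Counts of 56748 genes were scaled for each pair of libraries by TMM (edgeR 4.0.16, R 4.3.3). For genes with at least 10 counts over a pair, the log2 ratio was given a 95% Clopper-Pearson interval, conditional on the summed count (SciPy 1.17.1). Genes were called when this interval lay beyond 2-fold. Intervals of differences between genes and of ratios used the counting error of the log counts. With 1 library per condition there was no replicate spread to test against, and the exact test below rests on an assumed one. Gene length medians used 40 bins. The calling rule was run on simulated counts with counting error only, the error it assumes, so that run cannot show how it behaves under replicate spread.

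From each pathway list, up to 5 called genes per comparison by fold change, with at least 1 FPKM in the higher library, were named. The 10 genes, the lists and the rules were chosen with earlier results of these data known. Alternatives were DESeq2 1.42.0 size factors, total counts, upper quartile, the FPKM, other filters and calling rules, removal of the length trend, and edgeR's exact test with an assumed BCV.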

Additional observations from a re-analysis of the deposited data

How the results depend on the processing

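No paired analysis was possible because each condition was 1 library, and for the same reason no library could be left out. The log2 fold changes of the 10 genes lay inside their counting intervals in 150 of 150 values under other scalings. With the trend on gene length removed, 21 of 30 did, and Rel with OSM went from -0.23 to 0.02. Counts of calls depended most on the calling rule. Where 1 side of no change sufficed, 8 of the 10 genes were higher with OSM against vehicle, 1 was higher and 3 lower with IL-6, and 10 were higher with OSM against IL-6. The pathway lists then gave 39 higher and 33 lower of 102, 16 higher and 22 lower of 98, and 38 higher and 30 lower of 102, in the same order, beside 33.4% and 33.1%, 19.6% and 19.1%, and 33.2% and 33.2% of all compared genes. By the point estimate alone, 2 of the 10 genes, Nfkbie and Nfkbiz, were higher with OSM against IL-6, beside 1557 of all 15544 compared genes. The lists then gave 18 higher and 6 lower with OSM, beside 1565 and 2034 of all 15537. With IL-6 they gave 5 higher and 7 lower, beside 1033 and 1025 of all 15472. Between OSM and IL-6 they gave 23 higher and 3 lower, beside 1557 and 1981 of all 15544. With an assumed BCV of 0.2, 1 of the 10 genes, Nfkbie, was higher with OSM against IL-6, beside 709 of all 15544. With IL-6, 0 list genes were then higher, beside 112 of all 15472. With an assumed BCV of 0.4, 0 of the 10 genes were higher with OSM, beside 43 of all 15537. The lists gave 1 higher and 0 lower with OSM, beside 43 and 11 of all genes. They gave 0 in either direction with IL-6, beside 1 higher and 0 lower of all 15472. Between OSM and IL-6 they gave 3 higher and 0 lower, beside 57 and 20 of all 15544. At 100 or more counts over the pair, fewer genes were compared. The lists then gave 1 lower with OSM, beside 430 of all 11026. With IL-6 they gave 0 in either direction, beside 12 higher and 7 lower of all 10928. Upper quartile scaling left 1 list gene lower with OSM, beside 820 of all 15537. The interval of Rel with OSM, the only 1 of the 10, lay below no change with DESeq2 factors, with total counts and with TMM over the filtered genes, an alternative chosen after seeing the data. With total counts, 7 of the 10 genes had an interval above no change with OSM, 2 with IL-6 and 9 with OSM against IL-6. Depth limits Nfkbie, Nfkbiz and Tnfaip3 most, whose intervals are the widest of the 10.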
